A study of Mus musculus with 24 samples.

Results

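The collagen genes are the rows of the gene tables whose single gene symbol is Col, a type number, the letter a and a chain number. They were 45 rows of 44 genes among 25239 rows, of which 24357 carried a symbol, and Col6a6 had 2 rows (138669 and 35537 bp). The data are excision repair sequencing (XR-seq) of female wild-type C57BL/6 mice aged 6 months, housed with 12 h of light and as much dark a day and injected intraperitoneally with 10 mg/kg cisplatin, a drug that crosslinks neighbouring purines. XR-seq captures the short single-stranded pieces of DNA that nucleotide excision repair cuts out around a lesion, so each read marks a lesion that had been excised. Kidney and liver were taken 2 h after injection at 6 zeitgeber times (ZT, counted in hours from lights on), 0, 4, 8, 12, 16 and 20, with 2 libraries for each tissue and time, 12 kidney and 12 liver libraries in all. Every mouse had received cisplatin, so the series holds no group without the drug. Whether both libraries of a tissue and time were made from different mice is not stated in the labels. The p-values therefore cover only the scatter among libraries, part or all of which may be technical.

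Collagens are extracellular matrix proteins whose chains wind into helical trimers and are secreted after hydroxylation and glycosylation. The fibrillar collagens give tissues tensile strength, collagen IV forms the network of basement membranes, and other members link fibrils, anchor cells or span the plasma membrane. Excision repair acts on both strands of a gene, but a blocked RNA polymerase recruits repair to the transcribed strand (TS) alone. Reads on the TS therefore carry the mark of transcription-coupled repair. Reads on the non-transcribed strand (NTS) come from repair that needs no polymerase, unless that strand is itself the template of another transcript.

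Collagen genes were long, with a median row of 114.352 kb (range 7.105 to 419.039 kb) against 14.232 kb over all named rows. Rows on opposite strands that overlap can exchange their TS and NTS reads, and 4 of the 45 collagen rows (8.89%, against 14.5% of all rows) had such a partner. The whole 7105 bp of Col10a1, the collagen of hypertrophic cartilage, lay inside Nt5dc1. Col9a3, a cartilage chain, shared 229 bp with Tcfl5, and Col4a1 and Col4a2 shared 22 bp with each other. A further 6 rows overlapped a row of their own strand. Col26a1 shared its whole 141344 bp and Col6a2 25570 bp with an unnamed row, both Col6a6 rows shared 35537 bp, and Col27a1 and Col7a1 each hold an 82 bp microRNA row. How reads in such shared stretches were counted is not given in the sources used here. Col10a1 alone fell below the filter on low TS reads, so 44 rows entered the TS tests and 45 the NTS and strand tests.

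Libraries held 8718055 to 33716763 reads in kidney and 12917058 to 28244795 in liver. Shares of collagen rows were taken over the reads of named rows. On the TS they were 0.196% to 0.253% in a kidney library and 0.126% to 0.159% in a liver library, so these ranges did not overlap. On the NTS the shares were 0.335% to 0.359% in kidney and 0.316% to 0.350% in liver. Marker genes matched the tissue labels, since all 10 kidney tubule markers tested had more TS reads in kidney and all 9 hepatocyte markers tested had fewer. The first ZT0 liver library stood apart. Its 12 endothelial marker genes summed to 822 CPM, which is TS reads scaled to the size of the library, against 277 to 407 in the other liver libraries, and its hepatocyte markers to 441 CPM, the lowest of the 12. Col4a1 had 151 CPM there and 69.9 CPM in the other ZT0 liver library, and Col4a2 had 211 and 80.5 CPM. Several results below are given both with and without this library. Others, such as the Col13a1 differences between the tissues and the correlations of gene pairs, are given only with it.

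The TS level of a gene is given first as the authors' RPKM, reads scaled to the length of the row and the depth of the library. It is not scaled to the number of lesions formed in a gene, so it is a level of excised reads and not a rate of repair. Most collagen rows had a low TS level, and the part of row length and of lesion number in this was not tested. Their median RPKM was 0.138 in kidney and 0.0609 in liver, against 0.513 and 0.407 over all named rows, and 10 of the 45 rows exceeded the all-row median in each tissue. Col18a1, the basement membrane collagen whose end is released as endostatin, had the highest mean in kidney, 2.04 ± 0.35 RPKM (SD, n = 12), the 77.9th percentile of all rows. Col4a2 at 1.79 ± 0.26 and Col4a1 at 1.75 ± 0.24 came next in kidney and differed by less than their SD, as did Col7a1, the anchoring fibril collagen, at 1.66 ± 0.27. In liver Col20a1, a collagen of the fibril-associated (FACIT) group, led with 2.09 ± 0.40 RPKM and was followed within that spread by Col18a1 at 1.94 ± 0.16. The chains of the abundant interstitial fibrils stood far lower. Col1a1 averaged 0.340 ± 0.097 RPKM in kidney and 0.264 ± 0.057 in liver, and Col3a1 0.0642 ± 0.0174 in kidney and 0.0813 ± 0.0158 in liver (SD, n = 12 each).

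Kidney and liver were compared over the 6 times with edgeR's quasi-likelihood test on the deposited counts, with Benjamini-Hochberg adjustment over all 18295 rows tested. On the TS, 37 of 44 collagen rows passed an adjusted p of 0.05, 26 higher and 11 lower in kidney. Passing was common in this comparison: 75.3% of all rows tested did so, 42.9% higher and 32.4% lower in kidney, and the collagen share was 84.1%. The median log2 difference was 0.33 over the collagen rows and 0.06 over all rows. All 6 collagen IV chains were higher in kidney, with a median log2 difference of 2.16. Fibrillar collagens passed in 7 rows higher and 2 lower of 11, collagen VI in 2 higher and 4 lower of 7, FACIT collagens in 5 higher and 2 lower of 9, and the 3 tested network and anchoring collagens were all higher in kidney. The tissues are mixtures of cells, and more cells of a type cannot be told apart from more repair in each cell.

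**Figure D1:**
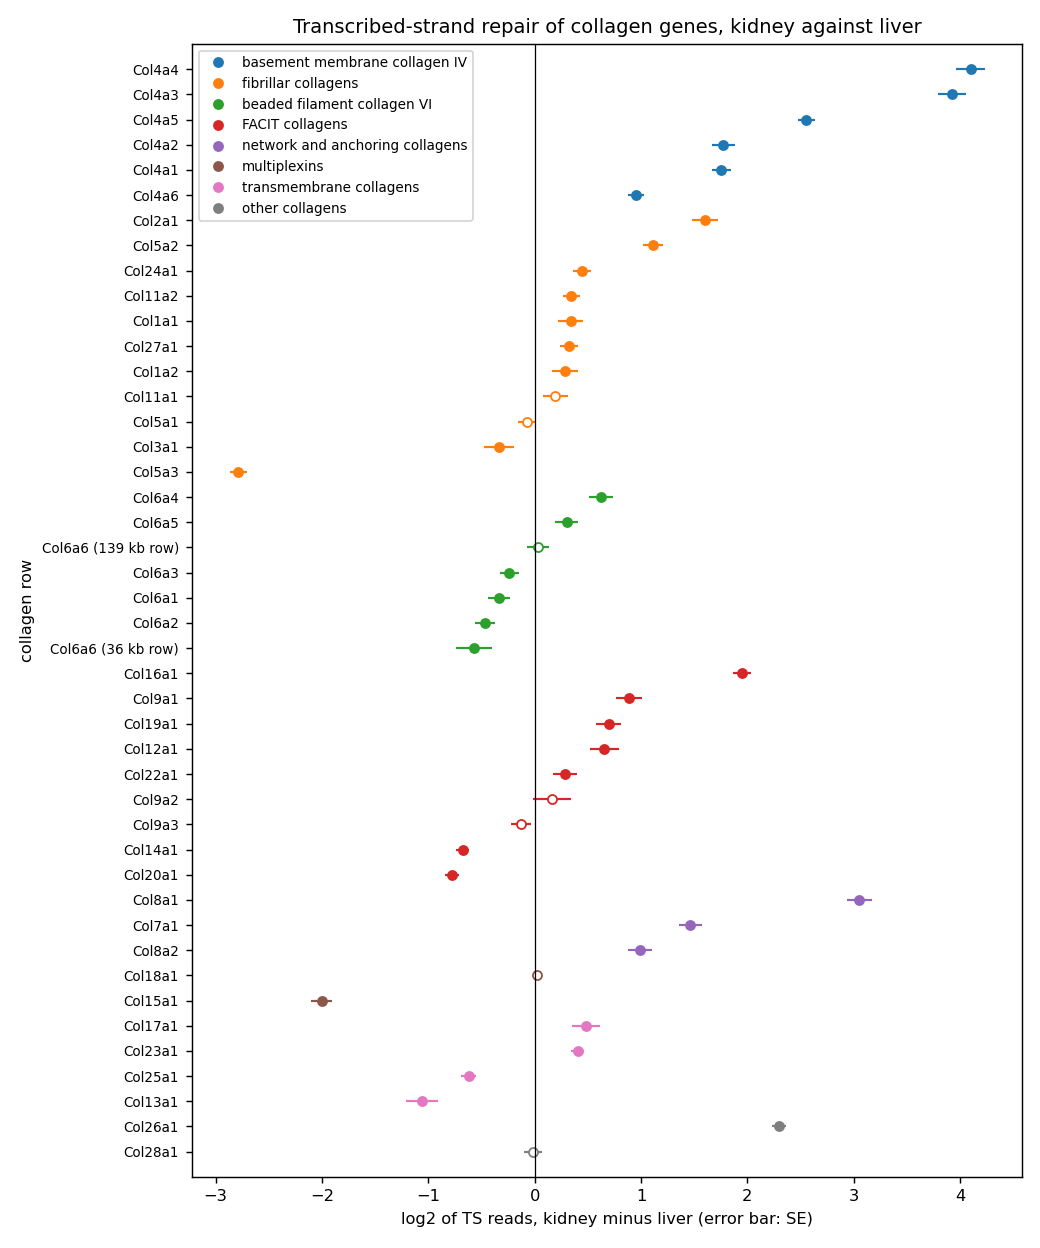
Log2 difference in TS reads, kidney minus liver, of each collagen row tested (x axis), with bars of 1 standard error and filled points for an adjusted p under 0.05; rows run down the page by class. Col4a4 (4.10) and Col4a3 (3.92) lie farthest to the right and Col5a3 (-2.79) farthest to the left.

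The collagen IV chains that build the glomerular filter, alpha 3, 4 and 5, were all higher in kidney, and alpha 3 and 4 separated the tissues most among the collagen rows. Mutations of these chains cause Alport syndrome in humans. Col4a4 had 0.606 RPKM in its lowest kidney library, a median of 0.948 and a highest value of 1.08, against 0.0343, 0.0458 and 0.0910 in liver. Col4a3 ran at 0.636, 0.992 and 1.13 RPKM (lowest, median, highest) in kidney and at 0.0414, 0.0577 and 0.105 in liver. Each kidney library lay far above every liver library for both genes, and the kidney to liver ratio was 17.1-fold for Col4a4 (log2 4.10 ± 0.13 SE) and 15.2-fold for Col4a3 (3.92 ± 0.13), with adjusted p of 4.25e-15 and 6.68e-15 by edgeR's quasi-likelihood test. Col4a5 had 0.162 to 0.257 RPKM in kidney (median 0.198) and 0.0276 to 0.0485 in liver (median 0.0323), a 5.87-fold difference (log2 2.55 ± 0.08). Without the first ZT0 liver library the log2 differences were 4.20, 4.02 and 2.58 for Col4a4, Col4a3 and Col4a5.

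Col4a1 and Col4a2, the chains found in basement membranes of all tissues, were also higher in kidney. Col4a1 ranged over 1.36 to 2.06 RPKM (median 1.75) in kidney and 0.404 to 0.915 (median 0.456) in liver, and Col4a2 over 1.45 to 2.18 (median 1.82) and 0.399 to 1.07 (median 0.469). The highest liver value of both genes came from the first ZT0 library, and still lay below every kidney library. The ratio was 3.38-fold for Col4a1 (log2 1.76 ± 0.09, 1.84 without that library) and 3.42-fold for Col4a2 (1.78 ± 0.11, 1.89 without it). Col4a6, which joins alpha 5 in the capsule around the glomerulus and in smooth muscle, had low values in both tissues, 0.0327 to 0.0436 RPKM in kidney and 0.0163 to 0.0283 in liver, a 1.94-fold difference (log2 0.95 ± 0.07). The podocyte markers, genes of the glomerular cell that secretes the alpha 3, 4 and 5 chains, were mixed: 4 of 8 tested rows were higher and 3 lower in kidney, and their summed TS level was 136 to 203 CPM in kidney and 254 to 365 CPM in liver. The 12 endothelial markers summed to 291 to 436 CPM in kidney and 277 to 822 in liver, with 2 higher and 1 lower in kidney. The part of cell composition in these differences was not tested.

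Several other collagens were repaired more in kidney. Col8a1, a short-chain network collagen of endothelium and cornea, had 0.176 to 0.282 RPKM in kidney (median 0.206) and 0.0159 to 0.0347 in liver (median 0.0260), with no overlap between the tissues. Its ratio was 8.30-fold (log2 3.05 ± 0.12). Col26a1, whose row is shared whole with an unnamed row, had 0.156 to 0.215 RPKM in kidney and 0.0281 to 0.0462 in liver, 4.91-fold apart (log2 2.30 ± 0.06, adjusted p = 5.61e-16 by edgeR's quasi-likelihood test). Col16a1, a FACIT collagen, was 3.86-fold higher in kidney and the cartilage collagen Col2a1 3.03-fold. The Col2a1 levels were 0.0922 ± 0.0246 RPKM in kidney and 0.0292 ± 0.0052 in liver (SD, n = 12 each). Col7a1 was 2.76-fold higher, at 1.18 to 2.04 RPKM in kidney and 0.385 to 0.951 in liver.

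The collagens with more TS repair in liver were led by Col5a3, a chain of collagen V, which regulates the width of fibrils. It had 0.0918 to 0.192 RPKM in kidney (median 0.131) and 0.567 to 1.33 in liver (median 0.998), so the tissues did not overlap, and the log2 difference was -2.79 ± 0.08 (adjusted p = 8.74e-16 by edgeR's quasi-likelihood test). Col15a1, a multiplexin of basement membrane zones, had 0.192 to 0.311 RPKM in kidney and 0.726 to 1.32 in liver (log2 -2.00 ± 0.10). Col13a1, a transmembrane collagen, had a log2 difference of -1.06 ± 0.15, with 134 CPM in the first ZT0 liver library and 34.7 CPM in the second. Col20a1 (-0.77 ± 0.07) and Col14a1 (-0.68 ± 0.06), both FACIT collagens, were lower in kidney as well. Col18a1, the close relative of Col15a1, did not pass: its values overlapped, 235 to 403 CPM in kidney and 264 to 361 CPM in liver, with a log2 difference of 0.02 ± 0.03 that turned to -0.03 without the first ZT0 liver library and to -0.04 with other scalings (RLE and DESeq2).

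The chains of interstitial fibrils and of collagen VI, which forms beaded filaments beside cells, differed little between the tissues. Col1a1 had 0.209 to 0.530 RPKM in kidney (median 0.328) and 0.191 to 0.391 in liver (median 0.249), and Col1a2 had medians of 0.177 and 0.148. Their log2 differences were 0.34 ± 0.12 and 0.28 ± 0.12 (adjusted p = 0.0172 and 0.0452, edgeR's quasi-likelihood test), while Col3a1 stood at -0.34 ± 0.14 (0.0419). The libraries of the tissues overlapped for all 3 genes, and these calls depend on single libraries. For Col1a1 the call was lost without kidney ZT4 or ZT20 replicate 2 or liver ZT12, ZT16 or ZT20 replicate 1, with adjusted p of 0.0519 to 0.0778. For Col1a2 it was lost without any 1 of 18 libraries (0.0509 to 0.207) and with RLE, DESeq2, no filter or the replicate block (0.0523 to 0.127), and for Col3a1 without any 1 of 11, the first ZT0 liver library among them (0.0620). Col6a1 (-0.33 ± 0.10), Col6a2 (-0.46 ± 0.09) and Col6a3 (-0.24 ± 0.09) were lower in kidney, the last of these not without kidney ZT4, ZT8, ZT16 or ZT20 replicate 1 (0.0546 to 0.0577). Mesenchymal markers, genes of the cells that make interstitial matrix, summed to 133 to 172 CPM in kidney and 53.3 to 79.3 CPM in liver, with 3 of 10 tested rows higher and 3 lower in kidney, and their part was not tested.

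The collagen IV genes lie in 3 head-to-head pairs, each pair read outward from a shared stretch of DNA. In the mm10 build, Col4a1 occupies chr8:11198423-11312826 on the minus strand and Col4a2 chr8:11312805-11449287 on the plus strand. Col4a4 occupies chr1:82450723-82586849 (minus) and Col4a3 chr1:82586921-82722059 (plus). Col4a6 occupies chrX:141165403-141474076 (minus) and Col4a5 chrX:141475419-141689235 (plus). The promoter windows below, 250 bases before and 50 bases from the start of each gene as given by RefSeq for GRCm38.p6, are shown because the paired genes start within or close to them. Windows were found for 35 of the 44 genes, Col4a3 not among them. The capitals mark the GC box (GGGCGG) and the CCAAT box (CCAAT), searched on both strands, with CCGCCC and ATTGG as the reverse strand reads; the E-box CACGTG was searched too. The Col4a2 window is chr8:11312555-11312854 (plus), the Col4a4 window chr1:82586800-82587099 (minus), the Col4a5 window chrX:141475169-141475468 (plus) and the Col4a6 window chrX:141474027-141474326 (minus).
Col4a2: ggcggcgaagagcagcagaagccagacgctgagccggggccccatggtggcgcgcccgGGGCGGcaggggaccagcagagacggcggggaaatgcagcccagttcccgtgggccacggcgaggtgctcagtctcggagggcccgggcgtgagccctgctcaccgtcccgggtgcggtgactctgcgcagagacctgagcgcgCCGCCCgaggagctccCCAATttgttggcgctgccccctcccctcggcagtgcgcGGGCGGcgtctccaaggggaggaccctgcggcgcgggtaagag
Col4a4: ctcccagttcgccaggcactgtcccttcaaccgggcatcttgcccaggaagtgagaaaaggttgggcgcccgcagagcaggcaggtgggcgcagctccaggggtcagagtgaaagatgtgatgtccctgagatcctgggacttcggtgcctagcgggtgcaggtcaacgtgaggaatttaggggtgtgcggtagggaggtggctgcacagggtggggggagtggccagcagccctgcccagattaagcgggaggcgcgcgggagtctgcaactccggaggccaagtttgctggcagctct
Col4a5: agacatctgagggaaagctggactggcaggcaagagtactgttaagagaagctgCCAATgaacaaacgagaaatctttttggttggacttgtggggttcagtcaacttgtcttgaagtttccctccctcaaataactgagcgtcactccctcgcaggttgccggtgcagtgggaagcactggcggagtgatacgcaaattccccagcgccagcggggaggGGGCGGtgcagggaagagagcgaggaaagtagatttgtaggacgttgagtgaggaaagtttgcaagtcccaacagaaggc
Col4a6: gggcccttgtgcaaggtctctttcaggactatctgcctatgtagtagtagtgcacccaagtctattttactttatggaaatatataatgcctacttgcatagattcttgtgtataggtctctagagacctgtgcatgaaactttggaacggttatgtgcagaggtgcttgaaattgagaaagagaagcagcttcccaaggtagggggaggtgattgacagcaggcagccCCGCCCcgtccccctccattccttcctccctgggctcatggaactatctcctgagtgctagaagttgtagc

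The Col4a2 window held 3 GC boxes, 1 CCAAT box and 33 CpG dinucleotides at 73.7% G and C, and its partner Col4a1 starts at base 272 of it. The Col4a4 window held none of the 3 motifs and 14 CpG at 63.3% G and C, with the start of Col4a3 at base 179. Col4a5 had 1 GC box and 1 CCAAT box (52.7% G and C), and Col4a6 had 1 GC box (48.3%). Over 32817 mouse windows of this length 35.6% held a GC box, 37.4% a CCAAT box and 7.15% the E-box. Among 38 collagen windows, some genes having more than one, 23 held a GC box (60.5%), 13 a CCAAT box (34.2%) and none the E-box.

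The close pairs had nearly equal TS levels. Col4a2 over Col4a1, whose starts lie 21 bp apart, gave an RPKM ratio of 1.02 ± 0.04 in kidney and 1.01 ± 0.09 in liver (SD, n = 12 libraries each). Col4a3 over Col4a4, 72 bp apart, gave 1.05 ± 0.02 in kidney and 1.19 ± 0.14 in liver, above 1 in every library of both tissues. The TS levels of these 2 genes differed 15.2-fold and 17.1-fold between the tissues. Col4a5 and Col4a6 start 1343 bp apart and were unequal: the ratio was 5.33 ± 0.98 in kidney, where it ran from 4.01 to 7.39, and 1.75 ± 0.20 in liver, where it ran from 1.45 to 2.13. Across the 12 libraries of a tissue, which share depth and time of day, log2 RPKM of the 2 genes of a pair correlated at r = 0.97 (kidney) and 0.94 (liver) for Col4a1 and Col4a2 and at 0.99 and 0.92 for Col4a3 and Col4a4. For Col4a5 and Col4a6 r was -0.01 in kidney and 0.72 in liver. The rank correlation (Spearman) in liver was only 0.37 for this pair, against 0.81 and 0.83 for the first 2 pairs. These are descriptions of 12 points each, and the liver values of all pairs include the first ZT0 library. Chains that form a trimer but lie on different chromosomes, Col1a2 over Col1a1, kept a ratio of 0.510 ± 0.061 in kidney and 0.533 ± 0.058 in liver.

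**Figure D2:**
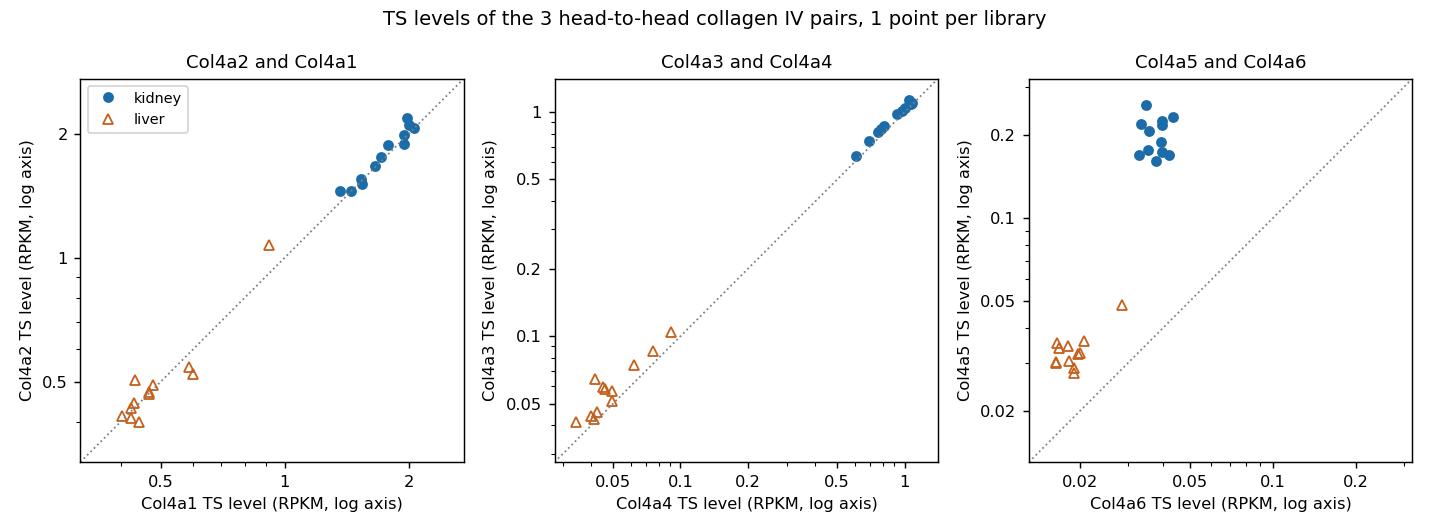
TS level in RPKM (log axes) of the 2 genes of each collagen IV pair, 1 point per library, kidney and liver. The Col4a1 and Col4a2 points and the Col4a3 and Col4a4 points run close to the line of equality (mean ratios of 1.01 to 1.19), while Col4a5 lies above Col4a6 in every library.

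The TS was set against the NTS of the same library, with the library as a block and 1 library size for both strands. More reads came from the TS for most genes: 92% of 18414 rows tested in kidney passed the test, 81.4% with more TS and 10.5% with fewer, and 91.7% of 17821 rows in liver (80.9% and 10.8%). Of the 45 collagen rows, 30 had more and 7 fewer TS reads in kidney, and 28 had more and 8 fewer in liver. Their median log2 ratio of TS over NTS was 1.69 in kidney and 0.96 in liver, against 2.49 and 2.70 over all rows. Scaling the TS and NTS columns to each other by TMM moves every ratio down by about the typical excess of the TS. On that scale, which gives ratios relative to most genes, 13 collagen rows were higher and 31 lower in kidney and 10 higher and 34 lower in liver, so the directions given next hold for reads of 1 library counted alike, not relative to the typical gene.

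**Figure D3:**
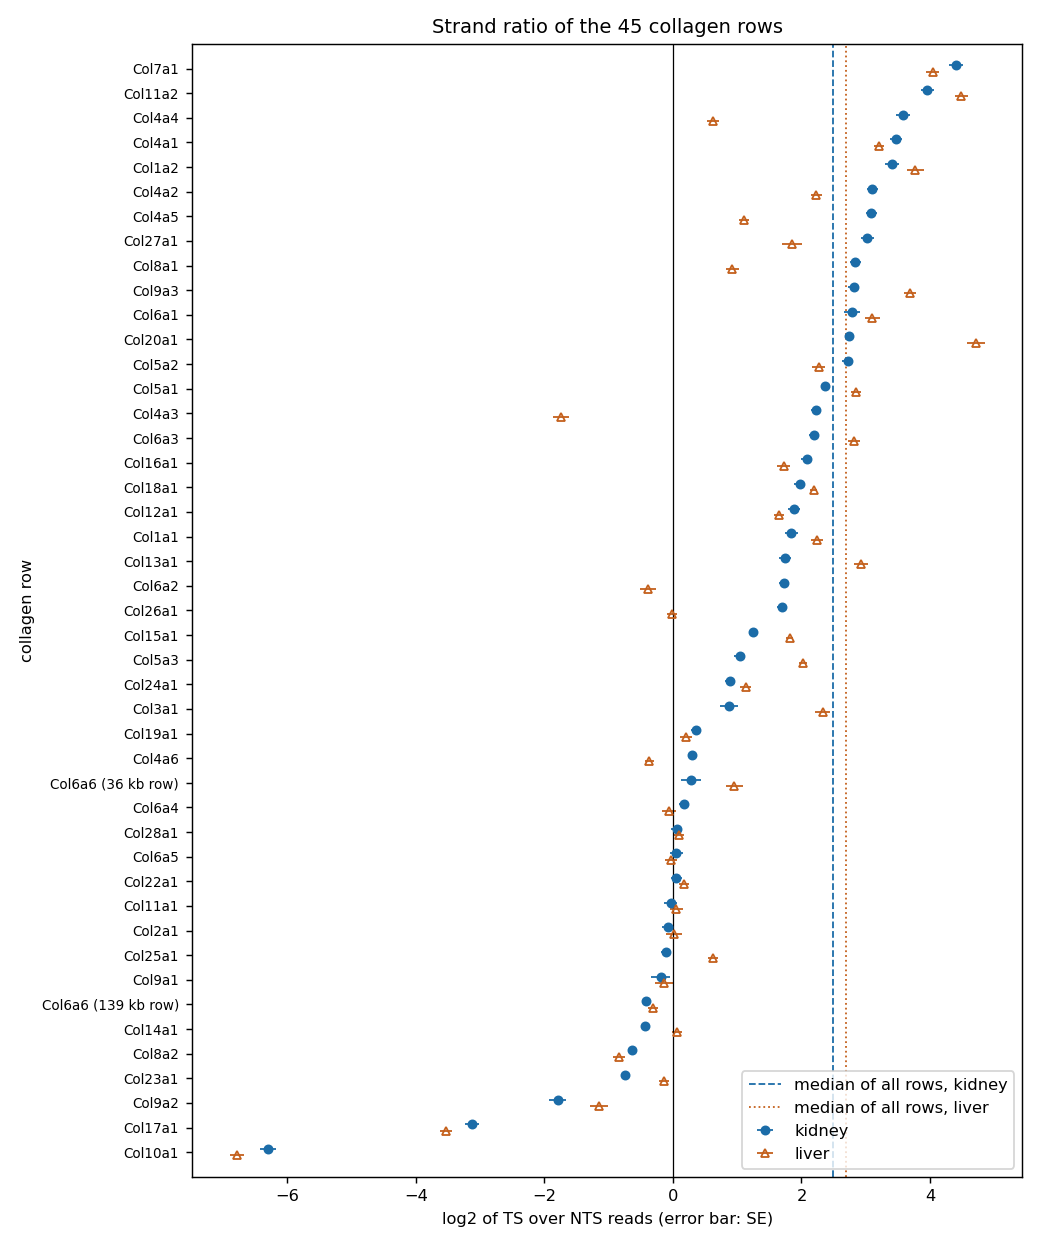
Log2 ratio of TS over NTS reads of each collagen row in kidney and in liver, with bars of 1 standard error, and the median of all rows tested as a dashed line for kidney (2.49) and a dotted line for liver (2.70). Col10a1 lies at the bottom in both tissues (-6.30 and -6.79), and Col4a3 lies above 0 in kidney (2.23) and below 0 in liver (-1.74).

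The steepest TS excess in kidney was that of Col7a1, with 1.18 to 2.04 RPKM on the TS (median 1.68) and 0.0442 to 0.117 on the NTS (median 0.0754). Its TS excess was 21.2-fold (log2 4.40 ± 0.10). Col11a2, a minor fibrillar chain (log2 3.96), Col4a4 (3.58), Col4a1 (3.47) and Col1a2 (3.41) followed. In liver Col20a1 led, at 1.52 to 2.80 RPKM on the TS and 0.0384 to 0.192 on the NTS, a 26.2-fold excess (log2 4.71 ± 0.14). Col1a1, with 1.84 ± 0.11 in kidney and 2.24 ± 0.10 in liver, and Col18a1, with 1.97 ± 0.08 and 2.19 ± 0.06, had an excess in both. Both strands were low and alike for the cartilage collagens Col2a1 and Col11a1, for Col28a1 and for Col6a5, which passed in neither tissue. Col2a1, for example, had medians of 0.0836 RPKM on the TS and 0.0935 on the NTS in kidney and 0.0271 and 0.0305 in liver.

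A few collagens had more reads on the strand that is not their template. Col10a1, inside Nt5dc1 on the other strand, had a median of 0.0262 RPKM on its TS and 2.22 on its NTS in kidney, and 0.0193 and 2.40 in liver. Col17a1, a transmembrane collagen of hemidesmosomes that shares no base with another row, ran at 0.0256 to 0.0753 RPKM on the TS and 0.386 to 0.532 on the NTS in kidney, and at 0.0204 to 0.0576 and 0.355 to 0.483 in liver. That is an 8.75-fold NTS excess in kidney (log2 -3.13 ± 0.11) and 11.5-fold in liver (-3.52 ± 0.09). The nearest row past its 3′ end on the other strand, Slk, ends 1094 bp away. Slk had 1.14 ± 0.08 RPKM on its own TS in kidney and 1.08 ± 0.11 in liver. Col9a2 (-1.79 ± 0.13 in kidney, -1.15 ± 0.15 in liver), Col8a2 (-0.63 and -0.84) and the long Col6a6 row (-0.41 and -0.31) also passed in both tissues. Opposite-strand rows lay past their 3′ ends too, Zmpste24 at 3912 bp, Adprhl2 at 2020 bp and Pik3r4 at 1761 bp. Collagens with a TS excess had neighbours of this kind as well. Slc19a1 lay 1746 bp past the 3′ end of Col18a1 and Rab20 4689 bp past that of Col4a2. Chrna4 lay 4770 bp past the 3′ end of Col20a1 and Rhbdd1 5355 bp past that of Col4a4. Whether transcription from such neighbours reaches into the collagen rows was not tested. Col23a1 (-0.75) and Col14a1 (-0.43) passed as lower in kidney alone. Col4a3, Col4a6 and Col6a2 passed as lower in liver alone, with log2 ratios of -1.73, -0.37 and -0.37 in the fit with the replicate block.

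The strand ratio itself was compared between kidney and liver as the interaction of strand and tissue. Of 45 collagen rows, 29 passed, 13 with a higher ratio in kidney and 16 with a lower one, beside 60.7% of all 19114 rows tested (23.1% higher, 37.6% lower). With TMM over all strand columns 19 collagen rows had the higher ratio in kidney and 13 the lower, and 52.1% of all calls were higher in kidney, against 38.1% here. The 6 collagen IV chains all had the higher ratio in kidney. Col4a3 differed most (log2 3.97 ± 0.16, adjusted p = 1.32e-22 by edgeR's quasi-likelihood test): its TS had medians of 0.992 RPKM in kidney and 0.0577 in liver and its NTS medians of 0.199 and 0.205. In liver it had 3.35-fold fewer TS than NTS reads, in 12 of 12 libraries. For Col4a4 the ratio was 12.0-fold in kidney and 1.54-fold in liver (difference 2.95 ± 0.15), with NTS medians of 0.0761 and 0.0320 RPKM. Col4a5 (1.98 ± 0.12), Col4a2 (0.87 ± 0.12), Col4a6 (0.67 ± 0.09) and Col4a1 (0.27 ± 0.12) followed in size, and the call for Col4a1 (0.0478) was lost under 18 of the other settings, 16 of which leave out 1 library.

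Among the other collagens, Col20a1 had the lowest kidney ratio relative to liver (-1.98 ± 0.16), with 6.68-fold in kidney and 26.2-fold in liver. Col3a1 (-1.45 ± 0.20), Col13a1 (-1.18 ± 0.15), Col5a3 (-0.99 ± 0.10) and Col6a3 (-0.62 ± 0.12) were lower in kidney as well, and Col26a1 (1.71 ± 0.10) and Col8a1 (1.91 ± 0.14) higher. Col6a2 differed by 2.11 ± 0.18, with both strands lower in kidney and the NTS by more. It had 0.124 to 0.268 RPKM on the TS in kidney and 0.197 to 0.339 in liver, and 0.0261 to 0.0835 on the NTS in kidney and 0.204 to 0.642 in liver. Its opposite-strand neighbour Ftcd, an enzyme of histidine breakdown, lies 5417 bp past its 3′ end and had 0.834 ± 0.139 RPKM on its own TS in kidney and 3.53 ± 0.41 in liver. Whether Ftcd takes part in the Col6a2 values was not tested.

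NTS reads were compared between the tissues in the same way as TS reads. Of 45 collagen rows, 31 passed, 23 higher and 8 lower in kidney, beside 67.7% of all 17601 rows (34.6% higher, 33.1% lower). Col6a2 differed most, by a log2 of -2.80 ± 0.11 (6.96-fold, adjusted p = 9.77e-21 by edgeR's quasi-likelihood test). Col5a3 (-2.06 ± 0.08) and Col15a1 (-1.68 ± 0.09) were lower in kidney on the NTS as on the TS. Col27a1, a cartilage fibril chain, was lower on the NTS (-1.10 ± 0.08) and higher on the TS (0.32 ± 0.08). The largest positive differences were those of Col2a1 (1.46 ± 0.13), Col16a1 (1.36 ± 0.08) and Col4a1 (1.27 ± 0.07). Differences of collagen IV were smaller than on the TS: Col4a4 0.91, Col4a2 0.70, Col4a5 0.33, Col4a6 0.05 (not passing) and Col4a3 -0.28. Col3a1 was higher in kidney on the NTS (0.92 ± 0.16) and lower on the TS (-0.34 ± 0.14).

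Rhythms over the day were tested with a 24 h cosine wave fitted to the 12 libraries of a tissue. The amplitude is the log2 height of the wave above its mean, and the peak to trough ratio spans the whole wave. On the kidney TS, 9 of 44 collagen rows passed an adjusted p of 0.05 (20.5%), against 15% of the 19277 rows tested. With replicate number as a block, which these kidney libraries call for because same-numbered libraries deviate together, 14 collagen rows passed (31.8%, against 25.4% of all). A test of any difference among the 6 times, with no assumed shape, passed 3 of the 44 and 1.02% of all. The count was 5 without ZT8 replicate 1 or 2 (11.4%, against 6.75% and 4.64% of all). It was 14 without ZT0 replicate 2 or ZT4 replicate 1 (31.8%, against 20.1% and 15.2% of all). The 9 rows were Col18a1, Col4a1, Col4a2, Col4a3, Col4a4, Col4a5, Col13a1, Col16a1 and Col27a1. Thus 5 of the 6 collagen IV chains passed and Col4a6 did not (amplitude 0.04 ± 0.06, adjusted p = 0.877 by edgeR's quasi-likelihood test). No collagen VI row passed, and 1 of 11 fibrillar collagens did.

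**Figure D4:**
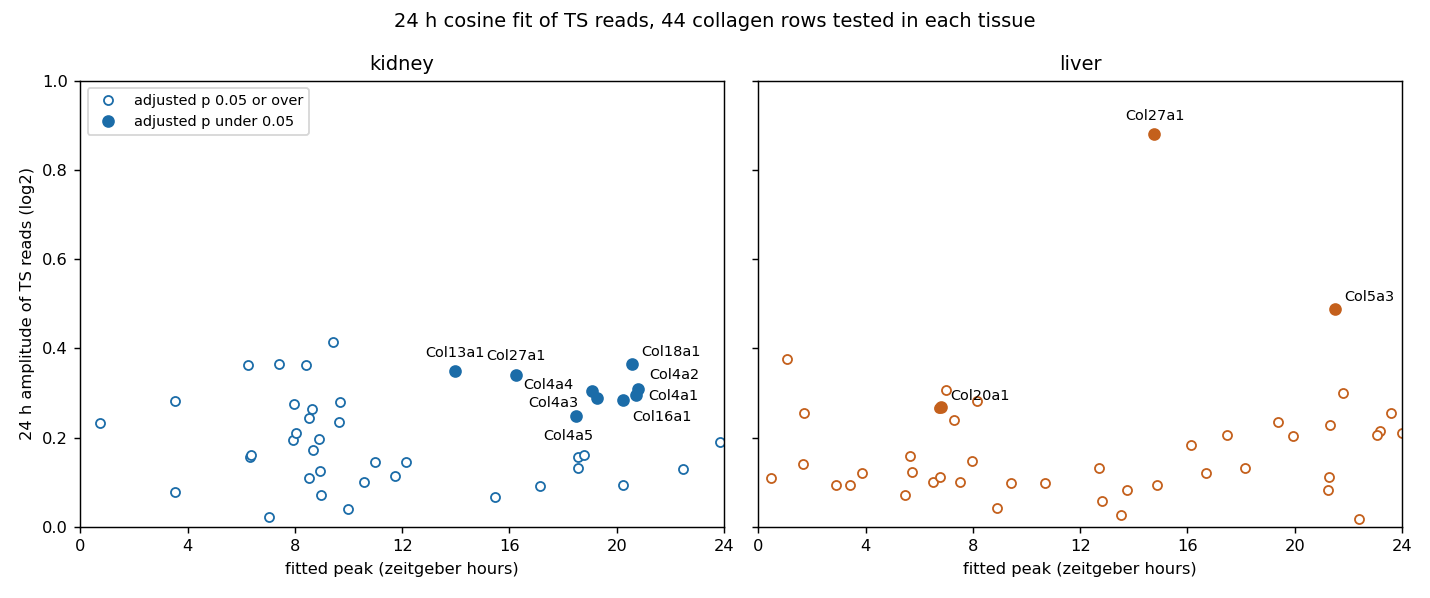
Amplitude of the fitted 24 h wave in log2 units against its peak time in hours for TS reads of each collagen row, kidney and liver. Filled points passed an adjusted p of 0.05. In kidney 8 of the 9 lie between 16 and 24 h, and Col27a1 in liver (0.88 at 14.7 h) has the largest amplitude.

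The kidney waves of basement membrane collagens were high around the end of the night and low at ZT8. Col18a1 TS reads (replicates 1 and 2, in CPM) were 384 and 368 at ZT0, 297 and 303 at ZT4, 235 and 252 at ZT8, 272 and 270 at ZT12, 348 and 386 at ZT16 and 390 and 403 at ZT20. Both ZT8 libraries were the lowest of the 12 and both ZT20 libraries the highest. The wave had an amplitude of 0.37 ± 0.03, its peak at 20.6 h and a 1.66-fold ratio of peak to trough (adjusted p = 3.89e-05, edgeR's quasi-likelihood test). Col4a1 had 325 and 305 CPM at ZT0, 273 and 257 at ZT4, 213 and 223 at ZT8, 246 and 242 at ZT12, 291 and 313 at ZT16 and 325 and 330 at ZT20, with a peak at 20.7 h and a 1.51-fold ratio (0.000121). Its partner Col4a2 peaked at 20.8 h with a 1.53-fold ratio (0.00023) and ran between 267 CPM, at ZT8, and 426 CPM, at ZT0. The Col18a1, Col4a1 and Col4a2 calls held when any 1 kidney library was left out and under the other settings that tested them. Col4a1 and Col4a2 had no value without overlapping rows or in the counts drawn down by the authors.

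The alpha 3, 4 and 5 chains peaked slightly earlier and with more spread between replicates. Col4a3 had 213 and 160 CPM at ZT0, 183 and 154 at ZT4, 137 and 115 at ZT8, 209 and 150 at ZT12, 209 and 191 at ZT16 and 216 and 198 at ZT20. Replicate 1 was the higher at every time, and the lowest values were those at ZT8. Its amplitude was 0.29 ± 0.07 with a peak at 19.2 h (adjusted p = 0.0274 by edgeR's quasi-likelihood test), and Col4a4 was alike at 0.31 ± 0.07 and 19.1 h (0.0272). Col4a5 had 47.4 to 77.9 CPM, its peak at 18.5 h and an amplitude of 0.25 ± 0.06 (0.0245). These 3 calls rest on single libraries. Col4a3 and Col4a4 were not called without kidney ZT8 replicate 1 (0.107 for both) or 2 (0.134 and 0.132), nor without ZT4 replicate 2, ZT12 replicate 2, ZT16 replicate 1 or ZT20 replicate 1 (0.0518 to 0.0699). Col4a5 was not called without ZT8 replicate 1 or 2 or ZT16 or ZT20 replicate 1 (0.0754 to 0.103), and none of the 3 was called once a trend with gene length was removed (0.0737 to 0.094). The block gave adjusted p of 0.000573 to 0.00191 for the 3, and the test of any difference among the times called none of them (0.144 to 0.287).

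Col16a1 also peaked late in the night, at 20.2 h, with 37.2 and 40.9 CPM at ZT8 and 50.8 and 66.4 at ZT16 (amplitude 0.29 ± 0.06, adjusted p = 0.0112 by edgeR's quasi-likelihood test). Its call was lost without ZT8 replicate 1 (0.0605) or 2 (0.0613) and in the test of any difference among the times (0.135). Col27a1 peaked at 16.2 h with 140 and 139 CPM at ZT4 and 237 and 241 at ZT16 (0.34 ± 0.06, 0.00606). Col13a1 peaked at 14.0 h, outside the late-night group: it had 20.1 to 26.7 CPM at ZT0, ZT4, ZT8 and ZT20 but 35.1 and 36.0 CPM at ZT12 (0.35 ± 0.07, 0.00635). Neither Col27a1 nor Col13a1 was called in the test of any difference among the times (0.0676 each). In all, 8 of the 9 collagen rows called peaked between 16 and 24 h (88.9%), as did 69.9% of the 2886 rows called. Of the 12 endothelial markers 7 were called in the same test, 6 of them with peaks between 4 and 12 h, and their summed level was 291 to 436 CPM, highest at ZT8 (384 and 436) and lowest at ZT20 (291 and 339). In kidney the mesenchymal markers summed to 133 to 172 CPM and the podocyte markers to 136 to 203 CPM. The part of endothelial cells in the collagen waves was not tested.

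The collagen I chains had fitted peaks in the light phase and did not pass. Col1a1 had 6.97 and 9.20 CPM at ZT0, 6.21 and 12.1 at ZT4, 8.46 and 10.9 at ZT8, 7.86 and 8.72 at ZT12, 5.37 and 7.59 at ZT16 and 4.99 and 6.73 at ZT20. Replicate 2 exceeded replicate 1 at every time. The fitted peak was at 6.2 h with an amplitude of 0.36 ± 0.10 (adjusted p = 0.0609 by edgeR's quasi-likelihood test), and Col1a2 gave 0.36 ± 0.11 at 8.4 h (0.0702). Col6a3 gave 0.28 ± 0.09 at 9.7 h (0.0776) and Col3a1 gave 0.16 (0.702). With replicate number as a block Col1a1 (0.00305), Col1a2 (0.00467) and Col6a3 (0.0094) passed and Col3a1 (0.578) did not. DESeq2 called the same 3 (0.0205 to 0.0273). All 3 also passed without ZT0 replicate 2 or ZT4 replicate 1 (0.0158 to 0.0367), and Col1a1 without ZT0 replicate 1 (0.0498). The mesenchymal markers Pdgfrb and Pdgfra, 2 of 10 tested, peaked at 7.8 and 8.9 h. The part of mesenchymal cells in these values was not tested.

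**Figure D5:**
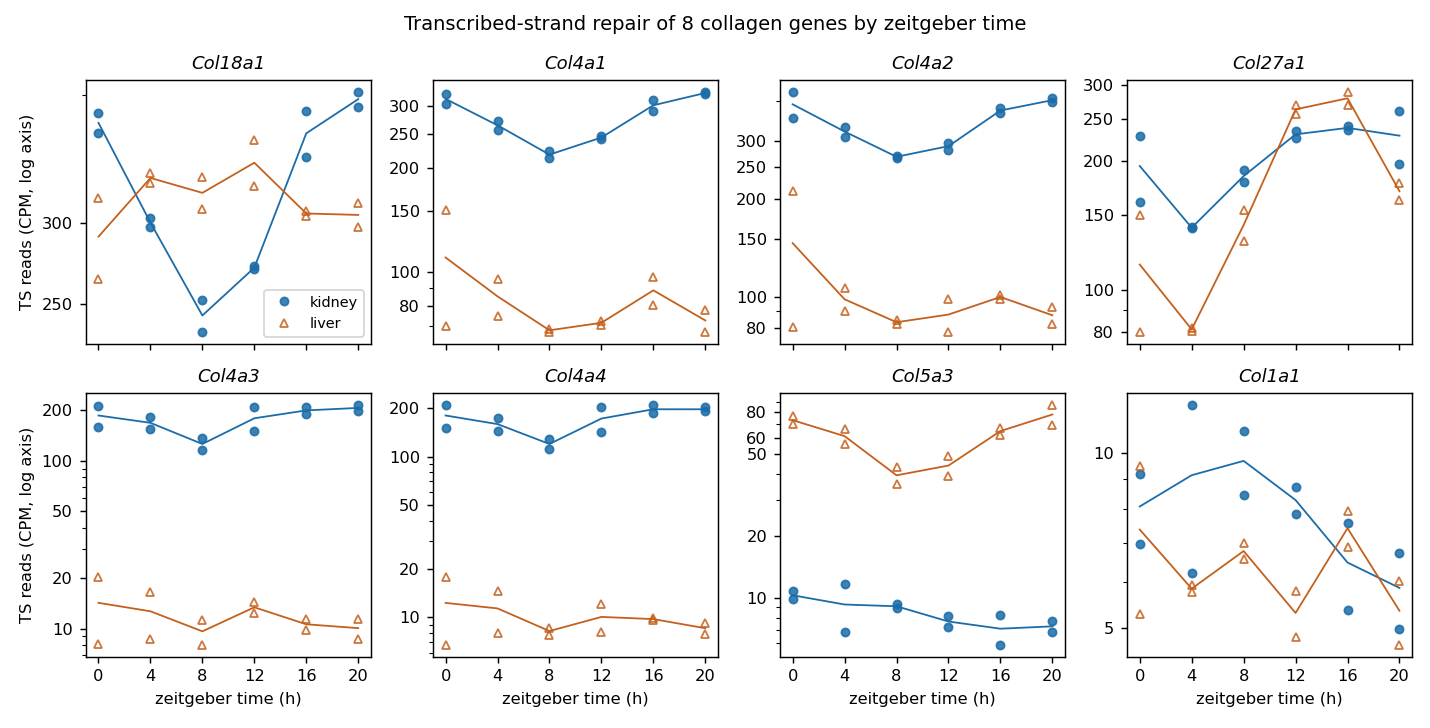
TS reads in CPM by zeitgeber time for collagen genes named in the text, with both replicates as points and their mean as a line, kidney and liver. In kidney Col18a1 is lowest at ZT8 (235 and 252) and highest at ZT20 (390 and 403), and in liver Col27a1 is low at ZT4 (81.9 and 80.3) and high at ZT12 and ZT16.

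In liver 3 of 44 collagen rows passed on the TS (6.82%), against 16.6% of 18655 rows tested. Col27a1 had the largest fitted amplitude of the collagen rows tested in either tissue. Its TS reads were 150 and 80.1 CPM at ZT0, 81.9 and 80.3 at ZT4, 130 and 154 at ZT8, 270 and 257 at ZT12, 270 and 290 at ZT16 and 178 and 162 at ZT20, so the ZT12 and ZT16 libraries lay above all others. The amplitude was 0.88 ± 0.09 with a peak at 14.7 h and a 3.39-fold ratio of peak to trough (adjusted p = 0.000221, edgeR's quasi-likelihood test), and without the first ZT0 library it was 1.00. Col5a3 had 70.0 and 76.5 CPM at ZT0, 43.3 and 35.7 at ZT8, 39.2 and 48.9 at ZT12 and 69.1 and 87.1 at ZT20, with a peak at 21.5 h (0.49 ± 0.06, 1.97-fold, 0.00113). Col20a1 peaked at 6.8 h, with 110 and 121 CPM at ZT8 and 78.0 and 71.7 at ZT16 (0.27 ± 0.06, 0.0288), a call lost without any 1 of 8 libraries: ZT4 replicate 2, either replicate of ZT8, ZT12 or ZT16, or ZT20 replicate 1 (0.0512 to 0.102). It was also lost in the test of any difference among the times (0.158).

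None of the basement membrane chains that passed in kidney passed in liver, where Col4a5 was called only without ZT0 replicate 2 (0.0422). Col18a1 had 264 to 361 CPM in liver (amplitude 0.10 ± 0.04, adjusted p = 0.202 by edgeR's quasi-likelihood test). Col4a1 gave 0.21 ± 0.12 (0.447), a value that rests on the first ZT0 library, since without it the amplitude was 0.04 (0.889). For Col4a2 the amplitude of 0.26 dropped to 0.02 without that library. The difference between tissues was tested as an interaction, which 3 of 44 collagen rows passed beside 1.13% of 18295 rows. Col18a1 differed (0.36 at 20.5 h in kidney, 0.09 at 9.5 h in liver, adjusted p = 5.54e-05). Col5a3 differed with 0.28 at 3.6 h in kidney and 0.50 at 21.5 h in liver (0.0195), which was lost without kidney ZT8 or ZT20 replicate 2 (0.0612 and 0.0745). Col27a1 differed with 0.34 at 16.2 h in kidney and 0.88 at 14.8 h in liver (0.0274), lost without any 1 of 6 libraries, kidney ZT16 and liver ZT4 and ZT12 (0.0508 to 0.0677). For Col4a1, Col4a2 and the other collagen IV chains the kidney and liver waves were not shown to differ.

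The NTS carried few rhythms. In kidney 1 of 45 collagen rows passed (2.22%), against 2.12% of 18932 rows, and 5 passed with the replicate block (11.1%, against 7.78% of all). Col18a1 had 597 and 538 CPM at ZT0, 593 and 540 at ZT4, 442 and 403 at ZT8, 424 and 432 at ZT12, 457 and 455 at ZT16 and 525 and 540 at ZT20. Its NTS peak came at 23.8 h, later than the 20.6 h of its TS (amplitude 0.25 ± 0.05, adjusted p = 0.0242 by edgeR's quasi-likelihood test), and the difference in peak between the strands was not tested. The call was lost without ZT0 replicate 1, ZT4 replicate 2, either ZT8 library, ZT16 replicate 1 or either ZT20 library (0.0521 to 0.073), and in the test of any difference among the times (0.234). Col4a3 did not pass (0.0938) but was called with the block (0.00465), DESeq2 (0.0274), no filter (0.0324) or without ZT0 replicate 2 (0.0365), and Col10a1 was called without ZT4 replicate 1 (0.0272). The number of rows called was 6 without ZT0 replicate 2 (13.3%, against 5.51% of all). It was 4 without ZT4 replicate 1 (8.89%, against 3.95%) and 3 without ZT12 replicate 1 (6.67%, against 3.17%).

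In liver 3 of 45 rows passed on the NTS (6.67%), against 3.76% of 18061 rows. Col5a3 again peaked late, at 21.3 h, with 105 and 139 CPM at ZT0, 78.4 and 69.6 at ZT8, 71.5 and 84.4 at ZT12 and 139 and 151 at ZT20 (amplitude 0.48 ± 0.07, adjusted p = 0.000186 by edgeR's quasi-likelihood test). Both strands of Col5a3 thus passed in liver with peaks 21.5 and 21.3 h. Col6a2 peaked at 8.0 h (0.47 ± 0.09, 0.00336), with 123 and 160 CPM at ZT8, 124 and 117 at ZT12 and 74.4 and 69.7 at ZT16, while its TS did not pass. The TS of its neighbour Ftcd had a fitted peak at 8.7 h that did not pass (adjusted p = 0.102). Col23a1, a transmembrane collagen, peaked at 6.1 h (0.29 ± 0.07, 0.0298), which was lost without either ZT4 or ZT16 library or replicate 2 of ZT8 or ZT20 and when overlapping rows were left out (0.0534 to 0.114), and in the test of any difference among the times (0.171).

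Genes outside the family with the most similar TS pattern were sought over the 24 libraries among 14807 genes with a mean of 50 or more reads. For Col4a3 they were Zfp827, Trabd2b and Ift57 (r = 0.997 each) and for Col4a1 Prmt2, Gm21949 and Vstm5 (0.992 to 0.993), values that share the difference between the tissues. Within a tissue r was 0.92 to 0.94 in kidney and 0.86 to 0.89 in liver for the Col4a3 group. For Col1a1 they were Angpt2 (0.86), Lrrc71 (0.86) and Epor (0.86), of which Angpt2 and Lrrc71 overlap a row on the other strand.

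Genes that act on collagen were read from lists of the pathway. In the folding and modification list, 13 of 20 genes tested had more and 5 fewer TS reads in kidney than in liver (75.3% of all rows passed). Among them were the prolyl and lysyl hydroxylases P3h2 (log2 3.11 ± 0.11) and Plod2 (2.85 ± 0.09) and Serpinh1, the collagen chaperone HSP47 (2.59 ± 0.11). In the processing and crosslinking list 10 of 18 were higher and 8 lower in kidney, with Fn1, the fibronectin gene, at -4.00 ± 0.07 and Bmp1, the procollagen C-proteinase, at -1.87 ± 0.04. Of 15 basement membrane partners 10 were higher and 3 lower in kidney, among them the laminin chains Lamb1 (3.51) and Lama1 (2.55). Degradation genes were 7 higher and 4 lower of 11, with Mmp14 at -1.95 and Mmp15 at -2.16, membrane-type collagenases, and Timp3, an inhibitor, at 2.86. Receptors were 5 higher and 3 lower of 9, Ddr1 at 2.77, and the TGF-beta list 4 higher and 2 lower of 11, with Ctgf at 2.27.

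In the kidney rhythm test (15% of all rows passing), 3 of 15 basement membrane partners passed: Nid2, a nidogen that bridges laminin and collagen IV (amplitude 0.43, peak 21.4 h), Lamc1 (0.24, 19.7 h) and Lama1 (0.31, 20.7 h). These peaks lie within 2 h of those of Col4a1 and Col18a1, and 69.9% of all 2886 rows called in kidney peaked between 16 and 24 h. Folding genes passed in 4 of 20, processing genes in 5 of 18, degradation genes in 2 of 11, TGF-beta genes in 5 of 11 and receptors in 0 of 9. P4hb, the shared subunit of prolyl 4-hydroxylase, peaked at 6.0 h in kidney and 8.2 h in liver. Of the 4 folding genes called in kidney, 3 peaked between 16 and 24 h. In liver (16.6% of all rows) Loxl4, a lysyl oxidase of crosslinking, had the widest wave of these lists (1.31 ± 0.10, peak 22.9 h, 6.11-fold). Nid2 (0.65, 22.7 h) and Lamc1 (0.25, 18.7 h) were among the 4 of 15 partners that passed in liver, where no collagen IV chain did. The remaining liver counts were 2 of 20 folding, 3 of 19 processing, 0 of 11 degradation, 1 of 9 receptor and 2 of 11 TGF-beta genes.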

How the data were processed

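XR-seq reads were analysed in 12 kidney and 12 liver libraries of 8718055 to 33716763 reads. Per the file headers, the authors deposited the count of reads of each gene row, strand, time and replicate, and the RPKM of the same row. The build was mm10, per the submitters' processing notes. Aligner and counter were not given in the sources used here. Cisplatin is the agent in the labels' protocols, which name antibodies to other lesions in the second immunoprecipitation, and which was used is not settled here. Deposited counts were tested across all rows with edgeR 4.0.16 in R 4.3.3 (filterByExpr, TMM, quasi-likelihood F test, Benjamini-Hochberg, threshold 0.05). Rows without a gene symbol, 2.72% to 2.81% of TS reads in a library, were left out. CPM values are scaled by TMM over the 24 libraries of a strand.

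Kidney libraries with the same replicate number deviated together (all 15 pairs of times over r = 0.1 on each strand, 0.111 to 0.571 on the TS), so block values are printed for kidney. Liver did so in 8 of 15. Kidney and liver libraries of the same time and number deviated together (r over 0.1) at 3 of 6 times on the TS. The main test of reads between the tissues did not pair such libraries, whereas its replicate block did. Every pair of replicates differed by more than sampling noise. Alternatives were RLE scaling, no filter, DESeq2 1.42.0, leaving out overlapping rows, the block, a test of any time, a length trend, counts drawn down by the authors and each library left out. The fits were tested on simulated data. The members, gene lists and tests were chosen with earlier results of these data known. Genes named in full are the major fibrillar, collagen IV, collagen VI, multiplexin and Col10a1 chains and, in each comparison, the members with the smallest adjusted p (4 a direction, 6 for rhythms).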

Additional observations from a re-analysis of the deposited data

Results flagged for a closer look

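The ratio of TS over NTS reads differed between kidney and liver by the test of strand and tissue for 29 of 45 collagen rows. For 16 of them, picked by the rule for named genes in this comparison, the values follow; Col8a1 (1.91), called too, lies outside that rule. The log2 difference, kidney minus liver, was positive for Col4a3 (3.97), Col4a4 (2.95), Col6a2 (2.11), Col4a5 (1.98), Col26a1 (1.71), Col4a2 (0.87), Col4a6 (0.67) and Col4a1 (0.27). It was negative for Col20a1 (-1.98), Col3a1 (-1.45), Col13a1 (-1.18), Col5a3 (-0.99), Col6a3 (-0.62), Col15a1 (-0.58), Col1a1 (-0.40) and Col18a1 (-0.22). The calls of Col4a1 and Col18a1 lie close to the threshold (adjusted p = 0.0478 and 0.0489, edgeR's quasi-likelihood test). Col18a1 lost its call without any 1 of 17 libraries (0.0527 to 0.0948), with no filter (0.0554), without overlapping rows (0.053) and with TMM over the strand columns (0.581). The call of Col1a1 was lost with that scaling (0.229) and with DESeq2 (0.0525).

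The daily wave of TS reads differed between the tissues for 3 collagen genes. The amplitude in kidney minus that in liver was 0.27 for Col18a1, -0.22 for Col5a3 and -0.54 for Col27a1. The test covered amplitude and peak time together, and the difference in amplitude alone was not tested.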

How the results depend on the processing

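Counts of collagen rows called stayed within 1.5 times their main value in 250 of 264 refits that left out a library and in 72 of 85 other refits. The rhythm counts moved under several settings, and the strand counts moved under TMM over all strand columns, as given further below. On the kidney TS the 9 rows became 14 with DESeq2 or the replicate block and 3 in the test of any difference among times, and ranged from 5 to 14 with 1 library left out; removing a length trend or using the counts drawn down by the authors gave 9 and 8. On the kidney NTS the 1 row became 4 without the filter or with DESeq2, 3 without overlapping rows, 5 with the replicate block and 0 in edgeR's test of any difference among times (6 rows at an unadjusted p under 0.05), and ranged from 0 to 6. On the liver NTS 3 became 5 without the filter, with a range of 2 to 4. The share of all rows called moved as well. On the kidney TS it was 15% in the main fit, 20.3% with DESeq2 and 25.4% with the block. It was 1.02% in the test of any difference and 4.64% to 20.1% with 1 library left out. On the kidney NTS it was 2.12%, 4.94% without the filter, 3.35% with DESeq2 and 7.78% with the block. Without overlapping rows it was 1.75%. On the liver NTS it was 3.76%, and 4.92% without the filter. The cause of these moves was not tested. The block moved no other count of calls by over 1.5 times.

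TMM over all strand columns centres the typical gene by construction and moved the median log2 ratio of all rows by -2.45 in kidney and -2.53 in liver. It gave 13 higher and 31 lower collagen rows in kidney, against 30 and 7, and 10 and 34 in liver, against 28 and 8. In kidney it turned the log2 ratios of Col15a1 (-1.22), Col18a1 (-0.50), Col1a1 (-0.59), Col3a1 (-1.56), Col4a3 (-0.24), Col4a6 (-2.16), Col6a2 (-0.71) and Col6a3 (-0.24), and in liver those of Col15a1 (-0.72), Col18a1 (-0.35), Col1a1 (-0.28), Col3a1 (-0.19), Col4a2 (-0.30), Col4a4 (-1.91) and Col4a5 (-1.43).

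The tissue difference of Col18a1, near 0 on both strands, also turned. On the TS it was -0.0377 with RLE, -0.0376 with DESeq2 and from -0.0272 to 0.0327 with 1 library left out. On the NTS it was -0.0133 with RLE, -0.0143 with DESeq2, -0.0220 without the filter, -0.0358 without overlapping rows and from -0.0378 to 0.0451 with 1 library left out. Values of named genes kept their direction and call in 2858 of 3024 refits without a library and in 879 of 933 others; a call was lost in 127 and 17 and gained in 17 and 16. Standard errors differed between rows: Col1a1, at 4.99 to 12.1 CPM in kidney, had a standard error of 0.10 on its amplitude, against 0.03 for Col18a1. The part of read depth in this was not tested.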

Other observations

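Collagen genes that the comparisons above give only as counts were mostly low and long. Col12a1, a FACIT collagen of tendon and skin, had 0.170 ± 0.033 RPKM on the TS in kidney and 0.107 ± 0.032 in liver (SD, n = 12 each) and passed as higher in kidney (log2 0.66 ± 0.14, adjusted p = 0.000364, edgeR's quasi-likelihood test). Col24a1, a minor fibrillar chain, stood at 0.0434 ± 0.0082 and 0.0313 ± 0.0041 (0.44 ± 0.08), and Col19a1 at 0.0182 ± 0.0026 and 0.0110 ± 0.0032 (0.70 ± 0.12). Col9a3 had 0.511 ± 0.111 RPKM in kidney and 0.547 ± 0.072 in liver and did not pass. Its partner chain in collagen IX, Col9a2, had 0.0577 ± 0.0214 and 0.0507 ± 0.0136, and the third chain, Col9a1, 0.0172 ± 0.0038 and 0.0088 ± 0.0022. Col5a1, the main chain of collagen V, did not differ beyond its error between the tissues (0.230 ± 0.039 and 0.238 ± 0.038 RPKM, log2 -0.08 ± 0.08), while Col5a2 was 2.16-fold higher in kidney and Col5a3 lower.

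On the NTS, 2 of 18 genes of the processing and crosslinking list passed the rhythm test in kidney (2.12% of all rows) and 2 of 17 in liver (3.76%), all of them lysyl oxidases, the enzymes that crosslink collagen. Loxl2 passed in kidney (amplitude 0.50 ± 0.07, peak 19.3 h, 2.01-fold) and in liver (0.36 ± 0.07, peak 17.6 h, 1.65-fold). In kidney Loxl4 peaked at 1.1 h on its TS (0.36 ± 0.05) and at 19.6 h on its NTS (0.40 ± 0.08). The difference between its strands was not tested. Loxl3, which shares 1298 bp with Htra2 on the other strand, passed on the NTS in liver (0.43 ± 0.08, peak 18.9 h). The lysyl hydroxylase Plod1 passed there too (0.37 ± 0.08, peak 9.7 h).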
